A study of Mus musculus with 24 samples.

Results

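The Schlafen genes encode a family of related proteins of immune cells that are found side by side on mouse chromosome 11. Genes were counted as members where the symbol in both deposited tables was Slfn1, Slfn2, Slfn3, Slfn4, Slfn5, Slfn8 or Slfn9, which gave 7 of 56691 genes. The study sequenced poly(A) RNA of 24 libraries of mouse macrophages to ask how loss of Olfml3, a gene for a secreted olfactomedin-like glycoprotein, changes gene expression at rest and after lipopolysaccharide (LPS). In RAW264.7 cells, a mouse macrophage leukaemia line, the 4 groups were wild type with PBS, labelled Olfml3 knockout with PBS, wild type with LPS and labelled Olfml3 knockout with LPS. The same 4 groups were made of bone marrow-derived macrophages (BMDMs), where wild type and knockout are mice of the C57BL/6 background with both Olfml3 alleles intact or both disrupted by CRISPR-Cas9. Treated cells received LPS for 4 h (100 ng/mL), and each group had 3 libraries.

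The RAW264.7 knockout was made with lentiviral guide RNAs and grown out from single sorted cells, so that a difference between the clone and its parent line cannot be told apart from the knockout. The number of clones in these libraries is not stated. The BMDMs came from young adult male mice and were grown in medium conditioned by L929 cells. The authors call the replicates biological, but whether they came from separate cultures or animals is not stated, so p-values measure the spread between these libraries, which may be technical. Total counts ran from 11638273 to 16478616 per library in RAW264.7 cells and from 17121240 to 22873094 in BMDMs. Levels are given as FPKM, fragments scaled to exon length and to the total counted, which allows genes of different length to be compared within a cell type. The 2 cell types came in separate tables that were normalised separately, so levels are set side by side across them with no test.

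Schlafen proteins share an N-terminal core and fall into short forms made of little more than that core (group I, here Slfn1 and Slfn2), intermediate forms (group II, Slfn3 and Slfn4) and long forms that add a helicase-like C-terminal part (group III, Slfn5, Slfn8 and Slfn9). They are known for restraining growth of thymocytes and T cells, for cleaving or protecting tRNA, and for hindering viruses. Many of them are induced by type I interferon, which macrophages release after LPS and which acts back on the same cells through its receptor.

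Olfml3 itself was examined in every library before the members. In BMDMs, wild-type libraries with PBS held 0.61, 0.53 and 0.65 FPKM of Olfml3 and knockout libraries 0.03, 0.01 and 0.01 FPKM, while with LPS the values were 0.24, 0.25 and 0.25 FPKM in wild type and 0.01, 0 and 0 FPKM in knockout. All BMDM libraries therefore carried the transcript level that their titles call for. In RAW264.7 cells the order was turned round, with 0.19, 0.15 and 0.15 FPKM in wild type and 0.65, 1.01 and 1.19 FPKM in the libraries labelled knockout with PBS. With LPS, wild-type RAW264.7 libraries held 0.13, 0.13 and 0.29 FPKM and the libraries labelled knockout 18.9, 18.8 and 18.3 FPKM. The Olfml3 transcript was thus higher, not lower, in every RAW264.7 library labelled knockout, and every direction given below for that line is by label. The clones were Sanger-sequenced to find mutations, and a mutation need not lower the transcript. Why the transcript was higher in the RAW264.7 libraries labelled knockout was not tested. For 12 of the 24 libraries, the knockout ones with PBS and the wild-type ones with LPS in both cell types, the genotype tag in the labels contradicts the title, and the titles were used.

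Within the RAW264.7 cells labelled knockout and given PBS, replicate 1 stood apart from its group. Over 12518 genes, its mean correlation with the other libraries of its group was 0.934 and that with wild-type PBS libraries 0.955, whereas every other library correlated better with its own group. The FPKM of all genes summed to 356156 in that library, against 296109 and 295256 in replicates 2 and 3 and 357349 to 361580 in wild type with PBS. It lay nearer to wild type in Slfn2, Slfn3, Slfn8 and Slfn9 and nearer to replicates 2 and 3 in Slfn4, Slfn5 and Olfml3. The members' calls, sums and order that involve this group are therefore given with and without it. So are counts over gene lists between genotypes with PBS. All groups of a cell type shared an estimate of the spread in each gene, so this library also enters the SE of RAW264.7 comparisons without its group. Those comparisons are given only with it in the fit. The reason for its position was not tested.

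Macrophage markers were present in both cell types. Lyz2, the most abundant of the 7 markers examined, ranged from 259 to 2264 FPKM in RAW264.7 cells and from 9890 to 15323 FPKM in BMDMs. Mertk had no count in any RAW264.7 library, and the other 6 markers reached 1 FPKM there, as did all 7 in BMDMs. The summed level of the 7 markers was lower in RAW264.7 cells labelled knockout, at 1054 to 1286 FPKM against 2914 to 2945 FPKM with PBS and 829 to 862 FPKM against 2729 to 2870 FPKM with LPS. Of the 6 markers tested there, 3 were called lower and 0 higher under either treatment, as also with PBS without replicate 1. In BMDMs the sum, carried by Lyz2, was 16474 to 17664 FPKM in knockout and 14693 to 15115 FPKM in wild type with PBS, and 12410 to 12686 FPKM and 11847 to 12061 FPKM with LPS, while 1 of the 7 was called lower and 0 higher under either treatment (median log2 fold changes -0.17 and -0.07). Of 12 markers of T, B and NK cells, Cd3e and Cd8a had no count in either cell type, and the sum of the 12 ranged from 0.16 to 3.05 FPKM in RAW264.7 cells and from 7.43 to 18.04 FPKM in BMDMs. That sum differed between genotypes after LPS, at 16.2 to 18.04 FPKM in wild-type and 7.43 to 7.87 FPKM in knockout BMDMs, and at 2.80 to 3.05 FPKM in wild-type and 0.65 to 0.83 FPKM in labelled knockout RAW264.7 cells, with 1 marker called lower in each. With PBS the genotypes did not overlap either, at 8.75 to 10.1 FPKM and 7.79 to 8.34 FPKM in wild-type and knockout BMDMs, where 0 were called. In RAW264.7 cells these were 1.04 to 1.40 FPKM and 0.16 to 0.58 FPKM, with 1 marker called lower with and without replicate 1. The most abundant of the 12 was Lck in RAW264.7 cells (0.1 to 2.65 FPKM) and Cd4 in BMDMs (3.30 to 8.58 FPKM). The sum of 8 neutrophil markers reached 0.81 FPKM in RAW264.7 cells and 8.61 FPKM in BMDMs, with Ly6g at no count in both. The sum of 6 dendritic cell markers in RAW264.7 cells was 1.14 to 1.36 FPKM in wild type and 8.77 to 10.2 FPKM in the libraries labelled knockout with PBS, where 1 was called higher with and without replicate 1, and 0.68 to 0.80 FPKM and 2.75 to 2.93 FPKM with LPS, where 3 were. Siglech, at 0.18 to 9.72 FPKM, was the most abundant of the 6 there and the only 1 to reach 1 FPKM in a group. The dendritic cell sum reached 1.78 FPKM in BMDMs, and that of 4 fibroblast markers reached 0.28 and 1.43 FPKM in RAW264.7 cells and BMDMs. The part of these markers in the Schlafen results was not tested, and in bulk RNA fewer cells expressing a gene and less RNA per cell cannot be told apart. The share of all genes called is given below with each comparison.

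All 7 members lie on chromosome 11 within 264 kb. By table coordinates, for which the build is not established, the order along the chromosome is Slfn5, Slfn9, Slfn8, Slfn2, Slfn1, Slfn4 and Slfn3. Slfn8 and Slfn9 are read from the minus strand and the other 5 members from the plus strand. The pseudogene Slfn10-ps lies between Slfn8 and Slfn2, and the antisense gene Slfn5os overlaps the start of Slfn5 on the other strand. The subgroups differ in the length of their coding sequence, which in the GENCODE annotation has 1011 bases in Slfn1 and 1134 in Slfn2, 1920 in Slfn3 and 1806 in Slfn4, and 2652 in Slfn5 and 2730 in both Slfn8 and Slfn9.

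**Figure D1:**
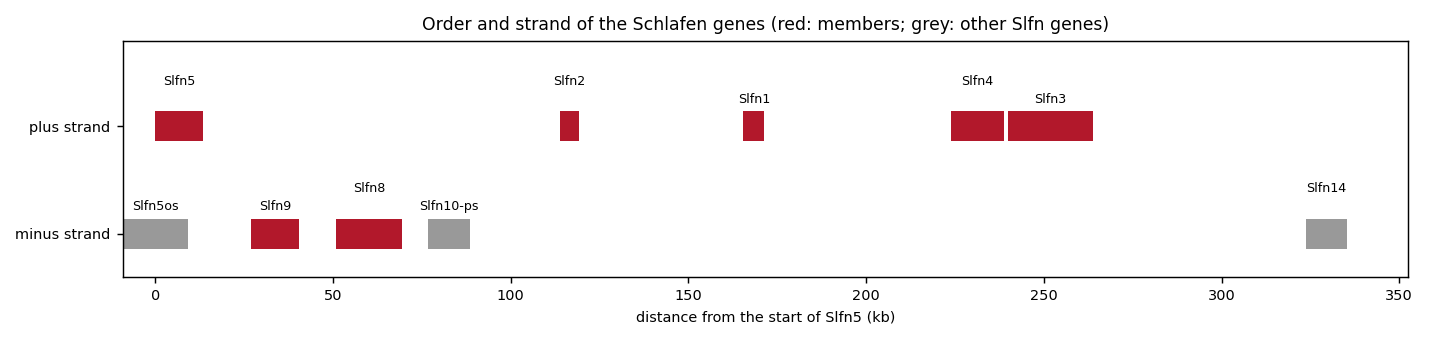
Map of the Schlafen cluster, with distance from the start of Slfn5 in kb on the horizontal axis and the strand on the vertical axis. Members are drawn in red and other Slfn genes in grey, to scale by the coordinates of the deposited tables, and the 7 members span 264 kb.

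Close copies limit how well reads can be assigned. The coding sequences of Slfn8 and Slfn9 are 92.7% identical over 2730 aligned bases, and those of Slfn3 and Slfn4 are 92.6% identical over 1788, while Slfn1 and Slfn2 share 71.3%. Among all 100-base stretches of their transcripts, 3.39% in Slfn8, 3.71% in Slfn9 and 2.92% in Slfn3 also occur in another gene, and the share is 0.271% in Slfn4, 0.238% in Slfn5, 0.128% in Slfn2 and 0 in Slfn1. Slfn8, Slfn9 and Slfn10-ps share such stretches with each other. Those of Slfn3 are shared mainly with Gm11427 (2.75%), and those of Slfn4 with Gm11427 and Slfn2. In wild-type RAW264.7 cells with PBS, Gm11427 held a mean of 26.4 FPKM and Slfn3 1.96 FPKM. Levels of Slfn8, Slfn9 and Slfn10-ps, and of Slfn3, are uncertain to the extent that reads from such stretches were split between genes. Without a statement that reads were counted by strand, those of Slfn5 and Slfn5os cannot be told apart either.

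Promoters of 300 bases were found in RefSeq for 7 of 7 members, and they are shown here for the members that hold the letters of the interferon-stimulated response element, a pair of GAAA runs 2 bases apart, and for Slfn1 as an example of a member that moved with genotype in both cell types but lacks them, as do Slfn2 and Slfn4. These letters, searched on both strands and set in capitals, occur in 3 of 7 members and in 3.44% of all 32851 promoters of the same length, and in 12 of 22 listed interferon-stimulated genes found there. The sequences run 5′ to 3′ on the gene's strand in build GRCm38.p6, at chr11:82951852-82952151 on the plus strand for Slfn5, chr11:83020761-83021060 on the minus strand for Slfn8, chr11:82991781-82992080 on the minus strand for Slfn9 and chr11:83116570-83116869 on the plus strand for Slfn1.
Slfn5: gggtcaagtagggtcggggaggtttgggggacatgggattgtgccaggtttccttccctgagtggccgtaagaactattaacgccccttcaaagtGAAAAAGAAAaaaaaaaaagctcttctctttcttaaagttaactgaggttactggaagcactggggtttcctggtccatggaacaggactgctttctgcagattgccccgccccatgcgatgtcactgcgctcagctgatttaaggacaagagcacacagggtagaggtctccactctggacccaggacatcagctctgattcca
Slfn8: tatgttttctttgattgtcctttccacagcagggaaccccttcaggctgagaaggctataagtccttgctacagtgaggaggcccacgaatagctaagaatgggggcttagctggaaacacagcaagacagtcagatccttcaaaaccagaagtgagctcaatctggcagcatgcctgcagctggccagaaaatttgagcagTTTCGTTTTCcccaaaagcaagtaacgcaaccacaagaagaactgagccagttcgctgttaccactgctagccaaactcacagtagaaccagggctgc
Slfn9: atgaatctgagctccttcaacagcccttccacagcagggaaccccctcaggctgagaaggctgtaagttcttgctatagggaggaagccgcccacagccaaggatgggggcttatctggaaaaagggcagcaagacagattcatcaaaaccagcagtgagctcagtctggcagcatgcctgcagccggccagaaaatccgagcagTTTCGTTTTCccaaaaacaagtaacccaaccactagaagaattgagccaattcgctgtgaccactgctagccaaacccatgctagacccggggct
Slfn1: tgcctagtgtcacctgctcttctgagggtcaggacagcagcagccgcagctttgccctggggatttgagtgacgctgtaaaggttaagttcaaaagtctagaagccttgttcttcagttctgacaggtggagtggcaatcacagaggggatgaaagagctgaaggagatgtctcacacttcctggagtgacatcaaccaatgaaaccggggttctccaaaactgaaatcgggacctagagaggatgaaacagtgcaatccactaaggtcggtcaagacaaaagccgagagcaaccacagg
A match of letters is a description of the sequence and no evidence that a factor binds. The longest run shared by the promoters of Slfn8 and Slfn9 has 20 bases, and that shared by Slfn1 and Slfn4 has 15. The letters of a kappaB site (GGG and TTTCC 2 bases apart) were found in 0 of 7 members and in 1.63% of all promoters.

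The short forms lay far apart in level, Slfn2 being the highest member in 7 of 8 groups and Slfn1 the lowest in 5. Slfn2, whose mutation in mice leaves T cells and monocytes unable to stay quiescent, held 208, 217 and 201 FPKM in wild-type BMDMs with PBS and 128, 128 and 134 FPKM in knockout BMDMs. With LPS it held 1099, 980.0 and 1005 FPKM in wild-type and 842, 850.4 and 838 FPKM in knockout BMDMs. Knockout libraries lay below all wild-type libraries under both treatments, and every LPS library lay above every PBS library. In RAW264.7 cells, Slfn2 held 23.7, 21.0 and 22.7 FPKM in wild type and 13.5, 6.37 and 8.78 FPKM in the libraries labelled knockout with PBS, and 665, 645 and 661 FPKM and 689.8, 659 and 680.1 FPKM with LPS. The PBS groups did not overlap, whereas the LPS groups did.

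Slfn1, first described as a brake on thymocyte growth, held 0.65, 1.13 and 0.64 FPKM in wild-type BMDMs and 0.03, 0.05 and 0.09 FPKM in knockout BMDMs with PBS, which came to 99 and 6 counts per group. With LPS the values were 21.3, 19.2 and 17.5 FPKM in wild type and 10.4, 9.48 and 10.9 FPKM in knockout. The genotypes were fully separated under both treatments, knockout being the lower. In RAW264.7 cells no count of Slfn1 was found in any of the 6 PBS libraries. With LPS, wild-type RAW264.7 libraries held 22, 36 and 45 counts (0.92, 1.31 and 1.67 FPKM) and the libraries labelled knockout 0, 2 and 1 counts (0, 0.08 and 0.04 FPKM). The transcript was thus detected in all wild-type LPS libraries and at the edge of detection in those labelled knockout.

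Slfn3 and Slfn4, the intermediate forms, were ranked differently in the 2 cell types. Slfn4, known as a myeloid transcript that rises when macrophages are activated, held 13.7, 13.8 and 13.2 FPKM in wild-type RAW264.7 cells and 19.0, 26.1 and 24.4 FPKM in the libraries labelled knockout with PBS. With LPS these became 243, 247 and 244 FPKM in wild type and 177, 179.9 and 179 FPKM in the libraries labelled knockout. The libraries labelled knockout lay above wild type with PBS and below it with LPS, without overlap in either case. In BMDMs Slfn4 was scarce, at 0.50, 0.71 and 0.23 FPKM in wild type and 0.09, 0.11 and 0.13 FPKM in knockout with PBS, and at 9.50, 8.80 and 8.65 FPKM and 7.69, 6.86 and 7.63 FPKM with LPS. Knockout was lower than wild type in every BMDM library of the same treatment, and the PBS values rest on 126 counts in wild type and 27 in knockout.

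Slfn3, studied mostly in T cells and gut epithelium, held 5.68, 6.46 and 6.0 FPKM in wild-type and 3.96, 4.60 and 4.51 FPKM in knockout BMDMs with PBS, and 17.3, 22.7 and 22.6 FPKM and 17.95, 18.9 and 18.7 FPKM with LPS. The genotypes were separated with PBS and overlapped with LPS through wild-type replicate 1 alone. The counts of that library departed from those of replicates 2 and 3 more than theirs did from each other (chi-square per degree of freedom 10.4 and 8.50, against 4.76), where the other BMDM pairs gave 1.76 to 2.68. In RAW264.7 cells, Slfn3 held 1.93, 1.73 and 2.21 FPKM in wild type and 1.64, 5.29 and 5.96 FPKM in the libraries labelled knockout with PBS, and 3.07, 2.95 and 2.91 FPKM and 5.77, 5.58 and 5.27 FPKM with LPS. Replicate 1 of the PBS libraries labelled knockout lay below all wild-type libraries, while the others labelled knockout lay above every wild-type library of their treatment.

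Slfn5, a long form that is a close relative of human SLFN5, held 64.0, 72.0 and 61.7 FPKM in wild-type and 18, 19.2 and 16.7 FPKM in knockout BMDMs with PBS. With LPS it held 507, 568 and 584 FPKM in wild type and 423, 427 and 413 FPKM in knockout. The genotypes did not overlap under either treatment, and the gap was wider with PBS in relative terms. In RAW264.7 cells with PBS, Slfn5 held 0.65, 0.76 and 0.53 FPKM in wild type and 0.10, 0.19 and 0.32 FPKM in the libraries labelled knockout, and with LPS 49.2, 48.2 and 47.9 FPKM and 54.7, 55.8 and 52.4 FPKM. The libraries labelled knockout were the lower ones with PBS and the higher ones with LPS.

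Slfn8 and Slfn9 are long forms annotated in the deposited tables as endoribonucleases that bind tRNA. Slfn8 held 25.5, 27.4 and 23.8 FPKM in wild-type and 9.70, 10.5 and 8.80 FPKM in knockout BMDMs with PBS, and 254, 275 and 274 FPKM and 208, 209 and 204 FPKM with LPS. Its near copy Slfn9 held 16.4, 15.6 and 16.3 FPKM in wild-type and 15.5, 16.0 and 16.5 FPKM in knockout BMDMs with PBS, and 76.0, 85.6 and 87.0 FPKM and 72.7, 74.1 and 72.7 FPKM with LPS. In resting BMDMs the genotypes were thus fully separated in Slfn8 and overlapped in Slfn9, and with LPS knockout was the lower genotype in both.

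In RAW264.7 cells, Slfn8 held 2.09, 1.77 and 1.71 FPKM in wild type and 1.57, 3.19 and 3.89 FPKM in the libraries labelled knockout with PBS, and 44.0, 46.9 and 43.4 FPKM and 59.0, 62.2 and 60.9 FPKM with LPS. Slfn9 held 6.45, 6.31 and 5.96 FPKM in wild type and 4.95, 8.91 and 8.43 FPKM in the libraries labelled knockout with PBS, and 22.2, 21.2 and 22.9 FPKM and 25.1, 25.4 and 24.8 FPKM with LPS. In both genes replicate 1 of the PBS libraries labelled knockout was the lowest of the 6 PBS libraries and replicates 2 and 3 the highest, and with LPS the libraries labelled knockout lay above wild type.

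**Figure D2:**
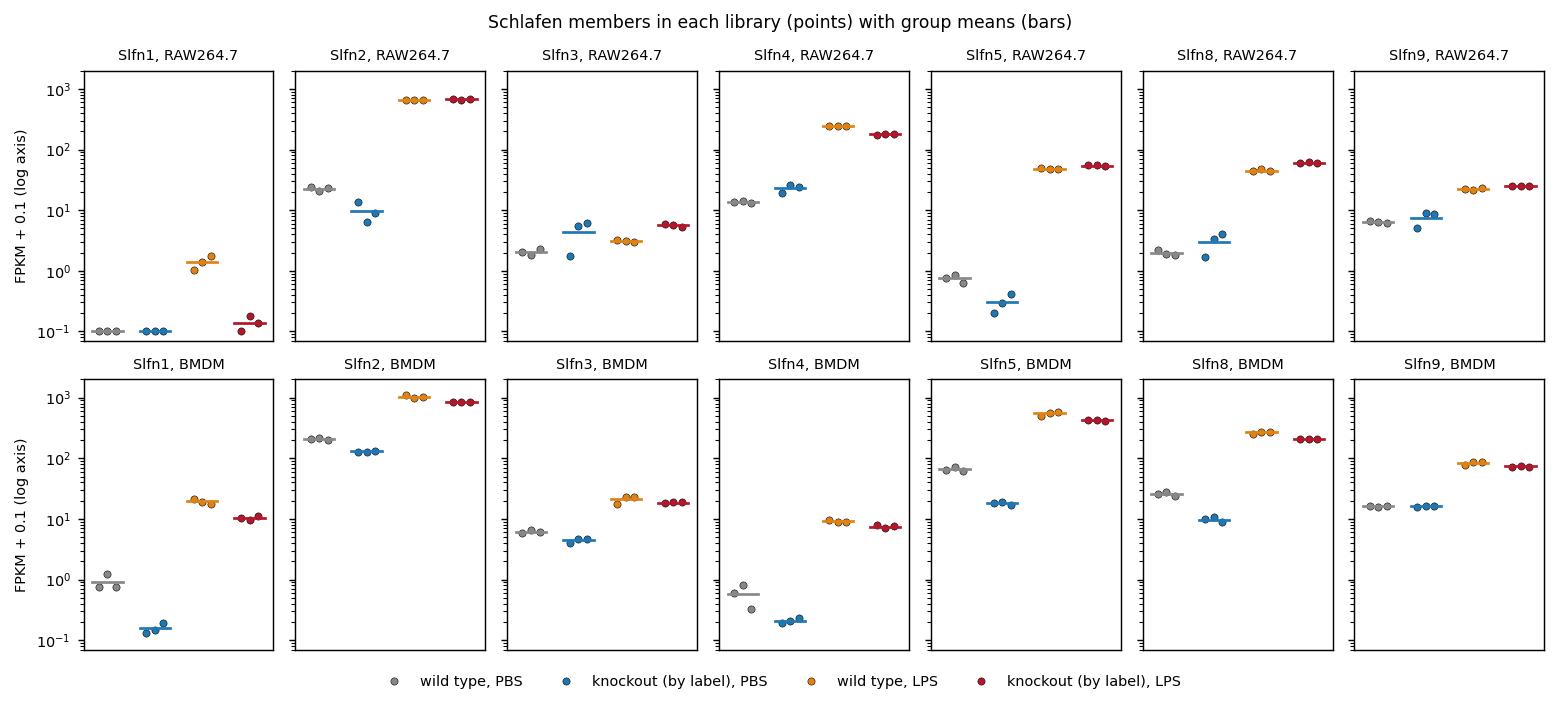
Level of each member in every library (points, with bars at group means), as FPKM plus 0.1 on a log axis, with RAW264.7 cells above, BMDMs below and groups by colour. In BMDMs all 7 members sit higher with LPS than with PBS, and in RAW264.7 cells with PBS the points of Slfn1 lie at 0 FPKM.

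The summed level of the family was higher with LPS than with PBS in every comparison. The 7 members together held 323 ± 15.3 FPKM (mean ± SD, n = 3) in wild-type and 178 ± 2.38 FPKM in knockout BMDMs with PBS, and 1981 ± 19.7 FPKM and 1581 ± 14.99 FPKM with LPS. This was 0.110%, 0.0606%, 0.655% and 0.526% of the FPKM of all genes. In RAW264.7 cells the sum was 46.7 ± 1.62 FPKM in wild type and 47.5 ± 5.98 FPKM in the libraries labelled knockout with PBS, and 1021 ± 6.81 FPKM and 1000.5 ± 11.8 FPKM with LPS. As a share of all FPKM, which summed to less in most libraries labelled knockout, this was 0.0130%, 0.0153% (0.0172% without replicate 1), 0.280% and 0.322%, so that with LPS the share was higher and the sum lower in the libraries labelled knockout. With PBS, the sums of the RAW264.7 genotypes overlapped through replicate 1 of the libraries labelled knockout, at 40.7 FPKM, replicates 2 and 3 at 50.1 and 51.8 FPKM lying above the 45.3 to 48.5 FPKM of wild type. Slfn2 gave 48.0% of the sum in wild type and 20.1% in the libraries labelled knockout (14.9% without replicate 1), and Slfn4 29.1% and 48.7% (49.6%).

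Slfn2 led in all groups but RAW264.7 cells labelled knockout with PBS, with 51.9% to 73.0% of the family's FPKM in BMDMs. In all 4 BMDM groups Slfn5 came next, followed by Slfn8 and Slfn9, which changed places in knockout BMDMs with PBS, where Slfn9 at 16.0 FPKM stood above Slfn8 at 9.68 FPKM. Slfn3 held place 5 of 7 in every BMDM group, its range overlapping that of Slfn1 only in wild type with LPS. Slfn1 and Slfn4 were at the bottom in BMDMs and overlapped with PBS, whereas Slfn1 lay above Slfn4 with LPS. In RAW264.7 cells Slfn4 ranked next to Slfn2 in 3 groups and above it in the libraries labelled knockout with PBS, and Slfn1 was the lowest member in all 4 groups. Slfn3 overlapped Slfn8 in wild-type RAW264.7 cells with PBS, and in the libraries labelled knockout with PBS the ranges of Slfn2, Slfn9, Slfn3 and Slfn8 each overlapped the next. Without replicate 1 the order there was Slfn4, Slfn9, Slfn2, Slfn3, Slfn8, Slfn5 and Slfn1, with Slfn9 and Slfn2 overlapping. In RAW264.7 cells with LPS no neighbours in the order overlapped.

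**Figure D3:**
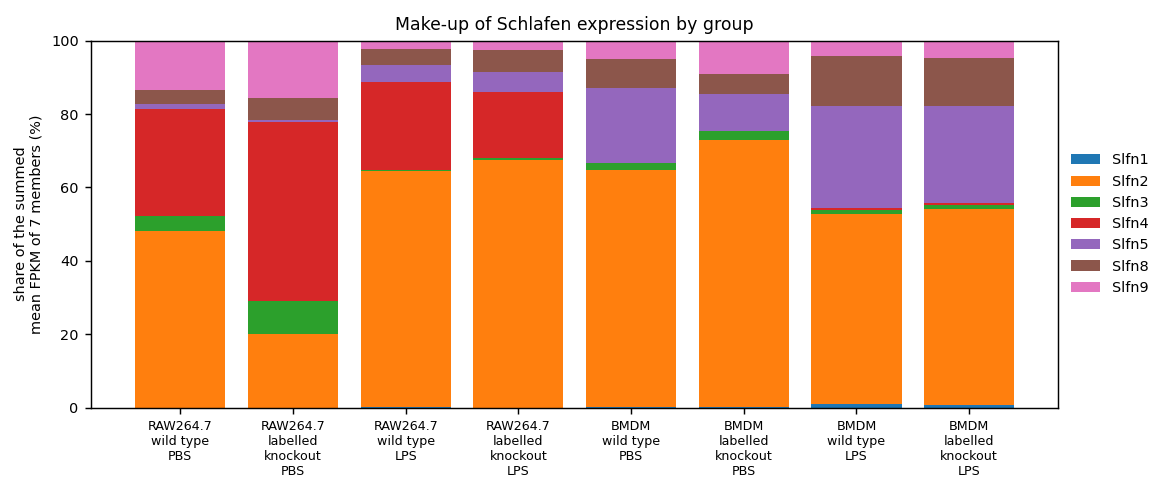
Share of each member in the summed mean FPKM of the 7 members, in percent, for the 8 groups. Slfn2 and Slfn5 take most of the sum in BMDMs, and Slfn2 and Slfn4 in RAW264.7 cells, where Slfn4 makes up 48.7% in the libraries labelled knockout with PBS.

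The effect of Olfml3 loss on resting macrophages was addressed by comparing genotypes with PBS. In BMDMs, 5 of 7 members were lower in knockout and none was higher, against 0.905% of all 26973 genes called lower and 0.901% called higher (1.81% either way, at an adjusted p below 0.05 and a change of at least 1.5-fold), and the genotypes did not overlap in 6 members, against 20.5% of all genes. The median log2 fold change was -1.38 over the 7 members and 0.01 over all genes. On the log2(FPKM + 0.1) scale the fall was largest in Slfn1, with a log2 fold change of -2.51 ± 0.20 (SE, limma adjusted p = 9.62e-05). Slfn5 followed at -1.87 ± 0.08 (limma adjusted p = 1.03e-06). Slfn8 fell by 1.39 ± 0.08 (adjusted p = 5.39e-06), Slfn4 by 1.38 ± 0.26 (adjusted p = 0.0176) and Slfn2 by 0.68 ± 0.05 on the log2 scale (adjusted p = 8.22e-05). In each of these genes all 3 knockout libraries lay below all 3 wild-type libraries. Slfn3 passed the p threshold (adjusted p = 0.0453) but not that on the fold, and Slfn9 gave an adjusted p of 1. Neither was called under any of 5 other scalings or count-based tests. The call of Slfn4 was lost without wild-type replicate 1, knockout replicate 1 or knockout replicate 2 (adjusted p = 0.0673, 0.0647 and 0.0583), with 5.16e-07 and 0.0673 as the lowest and highest adjusted p of 16 alternatives. With a pseudocount of 1 the log2 fold changes of Slfn4 and Slfn1 were -0.40 and -0.76, which ended the call of Slfn4, and in the count-based tests they reached -2.17 and -3.996. Slfn5 ranged from -1.92 to -1.80 over 16 alternatives, so the order of the falls depends on the scale.

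In RAW264.7 cells with PBS, 3 of 7 members were called between the labelled genotypes, against 8.55% of all 26740 genes. Of these, 2 were lower, against 3.77%, and 1 was higher, against 4.79%, and 3 did not overlap, against 24.1%. The median log2 fold change was 0.20 over members and 0.02 over all genes. Slfn2 was lower in the libraries labelled knockout, with a log2 fold change of -1.29 ± 0.21 (limma adjusted p = 0.00454), and so was Slfn5 at -1.35 ± 0.23 (adjusted p = 0.00497). Slfn4 was higher by 0.75 ± 0.11 (adjusted p = 0.00216). Without replicate 1 of the libraries labelled knockout the 3 calls were -1.57, -1.09 and 0.89 for Slfn2, Slfn5 and Slfn4, and Slfn3 at 1.48 (adjusted p = 1.18e-05) and Slfn8 at 0.89 (adjusted p = 2.38e-04) were called higher as well, making 5 of 7, against 20.8% of all genes called without it (12.7% higher and 8.11% lower), with medians of 0.47 over members and 0.02 over all genes. Without it, 6 of 7 did not overlap, all but Slfn1, against 47.2% of all genes. With all libraries, Slfn3 was also called higher in 3 of the 5 other scalings or tests and Slfn8 in 1. With a pseudocount of 1 the log2 fold change of Slfn5 was -0.45, under 1.5-fold, and its call was lost. Over all alternatives the adjusted p ranged from 1.18e-05 to 0.419 for Slfn3 and from 2.38e-04 to 0.570 for Slfn8. Slfn1 had no count in either group.

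**Figure D4:**
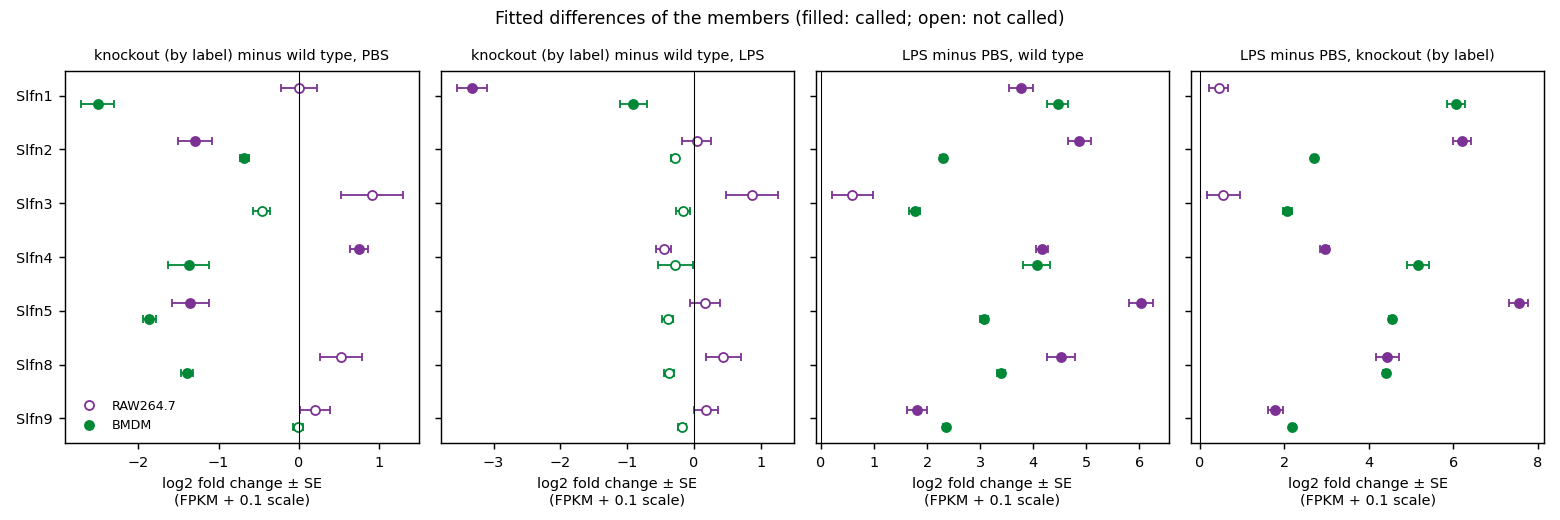
Fitted differences of each member, as log2 fold change ± SE on the FPKM plus 0.1 scale, for the genotype comparisons with PBS and with LPS and for LPS in each genotype by label (purple RAW264.7, green BMDM, filled where both thresholds were passed). In BMDMs with PBS 5 members are filled to the left of 0, and in both panels of LPS against PBS the filled points lie to the right. Between genotypes with LPS the filled point in each cell type is Slfn1, to the left of 0.

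The response to LPS was addressed in each genotype separately. In wild-type BMDMs, 7 of 7 members rose, against 7.94% of all genes called higher and 32.5% called lower (40.4% either way), and 7 did not overlap between treatments, against 52.2% of all genes. In knockout BMDMs 7 of 7 rose as well, against 8.02% called higher and 30.9% called lower (38.9% either way), and 7 did not overlap, against 52.1%. The median log2 fold change of members was 3.07 in wild type and 4.41 in knockout, while that of all genes was -0.30 and -0.28. The log2 fold changes in wild type were 4.46 in Slfn1, 4.06 in Slfn4, 3.38 in Slfn8, 3.07 in Slfn5, 2.35 in Slfn9, 2.30 in Slfn2 and 1.76 in Slfn3, with limma adjusted p-values of at most 3.67e-07. In knockout they were 6.06, 5.16, 4.41, 4.54, 2.19, 2.70 and 2.07 in the same genes, with adjusted p-values of at most 9.00e-08. The rises of Slfn1 and Slfn4 in knockout, whose PBS groups hold 6 and 27 counts, ranged from 3.41 to 8.32 and from 2.92 to 6.76 over 16 alternatives. These comparisons share no libraries with each other, but each shares its PBS and LPS libraries with a genotype comparison.

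On the FPKM scale most genes were lower after LPS, and whether the scale or the cells caused this was not tested. Among genes of at least 1 FPKM the median log2 fold change was -0.76 in wild-type and -0.65 in knockout BMDMs, and -0.20 and -0.22 in RAW264.7 cells. After median-ratio scaling, which brought these medians near 0, the members rose by 2.56 in Slfn3 to 5.21 in Slfn1 in wild-type BMDMs, and by 2.75 in Slfn3 to 6.47 in Slfn1 in knockout BMDMs. In RAW264.7 cells the scaled rise of Slfn5 was 6.26 in wild type and 7.76 in the libraries labelled knockout, and that of Slfn9 was 2.05 in both. Across all comparisons, 41 called results of members kept their sign in each of 5 other scalings or count-based tests.

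In wild-type RAW264.7 cells 6 of 7 members rose with LPS, against 5.8% of all genes called higher and 12.5% called lower (18.3% either way), and 7 did not overlap between treatments, against 38.8%. In the libraries labelled knockout 5 rose, against 7.45% called higher and 14.6% called lower (22.1% either way), and 5 did not overlap, against 35.5%. The median over members was 4.16 in wild type, or 4.52 with Slfn1 set at its bound, and 2.96 in the libraries labelled knockout, against -0.05 and -0.07 over all genes. Slfn5 rose by 6.03 ± 0.23 in wild type (limma adjusted p = 5.92e-08) and 7.55 ± 0.23 in the libraries labelled knockout (adjusted p = 1.12e-08). Slfn2 rose by 4.87 ± 0.21 and 6.20 ± 0.21, Slfn8 by 4.52 ± 0.26 and 4.44 ± 0.26, Slfn4 by 4.16 ± 0.11 and 2.96 ± 0.11, and Slfn9 by 1.81 ± 0.19 and 1.79 ± 0.19. Without replicate 1 of the PBS libraries labelled knockout, the same 5 members were called there, against 6.8% of all genes called higher, and did not overlap, against 46.4%, at 7.28, 6.48, 4.07, 2.82 and 1.52. Slfn1 in wild type went from 0 to 103 counts, at least 34.9-fold higher when the PBS group is set at a floor of 3 counts over the group. In the libraries labelled knockout Slfn1 went from 0 to 3 counts, for which no fold is given. Slfn3 was called by limma in neither genotype, its treatments overlapping in the libraries labelled knockout, whereas DESeq2 called it higher in wild type (0.85, adjusted p = 0.0399, over a range of 0.0399 to 0.563).

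Genotypes were next compared after LPS. In BMDMs 1 of 7 members was called, lower in knockout, against 1.53% of all genes called lower and 3.23% called higher (4.76% either way), and 6 did not overlap, against 26.7%. The median log2 fold change was -0.28 over members and 0.04 over all genes, and 0.14 over genes of at least 1 FPKM. Slfn1 was lower in knockout, with a log2 fold change of -0.90 ± 0.20 (limma adjusted p = 0.0130), or -1.06 after median-ratio scaling. That call was lost with a pseudocount of 0.01 (adjusted p = 0.0996) and with values scaled to TPM (adjusted p = 0.0513), and the adjusted p ranged from 2.01e-22 to 0.0996 over 16 alternatives. Slfn2, Slfn5 and Slfn8 passed the p threshold (adjusted p = 0.00560, 0.00793 and 0.00840) but differed by less than 1.5-fold, with means of 1028 and 843 FPKM, 553 and 421 FPKM, and 268 and 207 FPKM in wild type and knockout.

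In RAW264.7 cells with LPS 1 of 7 members was called, lower by label, against 7.6% of all genes called lower and 9.73% called higher (17.3% either way). The count called was near the share of all genes called either way. In 6 members the genotypes did not overlap, against 40.2%. The median was 0.16 over members and 0 over all genes. The called member was Slfn1, with 103 counts in wild type and 3 in the libraries labelled knockout, a ratio of 30.3 with a 95% interval of 10.1 to 150 after division by the group totals. The interval and the floor cover counting error only. The fitted log2 fold change of -3.33 ± 0.23 (limma adjusted p = 1.44e-05) depends on the pseudocount and is no bound. The libraries labelled knockout lay above wild type in Slfn3, Slfn5, Slfn8 and Slfn9 and below it in Slfn4. Slfn3 was not called by limma (adjusted p = 0.135), with an SE of 0.38 that also holds the spread of the PBS libraries. The count-based tests called Slfn3 higher in the libraries labelled knockout (DESeq2 adjusted p = 0.0258, edgeR 0.0405). Its adjusted p ranged from 0.0258 to 0.367 over all alternatives. None of the 6 others was called by limma under any of the scalings.

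Whether the genotype difference changed with LPS was tested by the interaction. In BMDMs it was called in 3 of 7 members, all positive, against 1.89% of all genes called positive and 1.02% called negative (2.91% either way). In these members the ratio between genotypes, not the difference in FPKM, was nearer to 1 with LPS than with PBS. The median over members was 1.02, against 0.05 over all genes. The interaction was 1.60 ± 0.29 in Slfn1 (limma adjusted p = 0.0114), 1.48 ± 0.11 in Slfn5 (adjusted p = 1.23e-04) and 1.02 ± 0.11 in Slfn8 (adjusted p = 6.71e-04). After median-ratio scaling the values were 1.26, 1.36 and 0.91. The value of Slfn1 turned to -0.0863 with a pseudocount of 1 (adjusted p = 0.821, over a range of 3.79e-05 to 0.821 for 22 alternatives). Slfn4, at 1.10 in the main test and not called, was called without wild-type PBS replicate 3 (1.46, adjusted p = 0.00308), with no filter (adjusted p = 0.0393) and by edgeR and DESeq2 (1.72 and 1.73, adjusted p = 7.71e-04 and 0.00153), with a range of 7.68e-04 to 0.677. Slfn9 was not called in any of them.

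In RAW264.7 cells the interaction was called in 3 of 7 members, against 1.95% of all genes. It was called negative in 2, against 1.04%, and positive in 1, against 0.905%. The median was -0.04 over members and -0.01 over all genes. It was -3.33 ± 0.32 in Slfn1 (limma adjusted p = 8.10e-04), a value that only repeats the difference with LPS and depends on the pseudocount, since both PBS groups hold no count, and which no count-based test called (edgeR adjusted p = 1.00, over a range of 7.10e-04 to 1.00, and none given by DESeq2). Slfn4 gave -1.21 ± 0.15 (adjusted p = 0.00409, lost with TPM at an adjusted p of 0.0577, over a range of 3.41e-13 to 0.0577) and Slfn5 1.52 ± 0.32 (adjusted p = 0.0468). The call of Slfn5 was lost without any of 10 of the 12 libraries, with adjusted p-values of 0.0648 to 0.118, and kept without replicate 1 or 3 of the PBS libraries labelled knockout, and over 22 alternatives its adjusted p ranged from 1.93e-12 to 0.139. It was also lost with TPM (adjusted p = 0.139), a pseudocount of 0.01 (0.122) and the replicate number as a block (0.102). Without replicate 1 of those libraries 5 of 7 members were called, against 3.41% of all genes, with -1.34 in Slfn4, 1.25 in Slfn5, 1.61 in Slfn2 (adjusted p = 9.94e-04) and -0.61 in Slfn3 (adjusted p = 0.0431) beside Slfn1. Slfn2, at 1.33 and an adjusted p of 0.0620 in the main test, was also called with all libraries by DESeq2 (1.30, adjusted p = 3.13e-05), by edgeR (1.28, adjusted p = 0.0115), with TPM (1.38, adjusted p = 0.0306), under either other filter and with a pseudocount of 1, and without replicate 2 of those libraries (1.08, adjusted p = 0.0447), over a range of 3.13e-05 to 0.145.

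Genes of the interferon pathway were set beside the members as counts over lists. Of 30 interferon-stimulated genes, 29 were lower in knockout BMDMs with PBS (median log2 fold change -2.16), against 0.905% of all genes called lower. With LPS 9 of the 30 were lower (median -0.35), against 1.53%. In that list 29 BMDM interactions were called, all positive, with a median of 1.73 over the list, against 2.91% of all genes called. In RAW264.7 cells 9 interactions of the list were called positive and 3 negative (median 0.39), against 1.95%. Without replicate 1 these were 11 and 3 (median 0.52), against 3.41%. In RAW264.7 cells labelled knockout with PBS, 20 of the 30 were lower and 1 was higher (median -1.23), against 3.77% and 4.79% of all genes. Without replicate 1 the counts were 20 and 3 (median -1.20), against 8.11% and 12.7%. With LPS 15 were lower and 1 higher (median -0.65), against 7.6% and 9.73%. With LPS, 29 of 30 rose in each of the 4 comparisons of treatments, as did 12 of 12 genes of the LPS response list. Both counts were the same without replicate 1. Over all genes 5.8% to 8.02% were called higher in these comparisons, and 6.8% in RAW264.7 cells labelled knockout without replicate 1. In the LPS response list 3 genes were higher in knockout BMDMs with LPS (median 0.40), against 3.23% of all genes. With PBS 0 were called, against 1.81% (medians 0.23 over the list and 0.01 over all genes). In RAW264.7 cells 3 of that list were lower with PBS (median -0.37), against 3.77%. Without replicate 1 there were 4 lower and 1 higher (median -0.32), against 8.11% and 12.7%. With LPS 2 were higher and 2 lower (median -0.08), against 9.73% and 7.6%.

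Among ligands, Ifnb1 was the only interferon of 21 listed that was detected in RAW264.7 cells, where it had no count with PBS and 18.6 ± 0.139 FPKM in wild type and 22.3 ± 1.27 FPKM in the libraries labelled knockout with LPS. In BMDMs with LPS it held 6.21 ± 1.13 FPKM in wild type and 2.53 ± 0.196 FPKM in knockout, and was called lower (limma adjusted p = 0.00652). Of the 7 ligands detected there 2 were called lower (median -0.28), against 1.53% of all genes. Of 15 receptors and signalling genes, 4 were lower in knockout BMDMs with PBS (median -0.13), against 0.905% of all genes. With LPS 1 was lower (median 0.07), against 1.53%. Those with PBS included Irf7 at 2.05 ± 0.0800 FPKM against 23.5 ± 3.44 FPKM, where Slfn5 and Slfn8 were lower too. In RAW264.7 cells with PBS, Irf7 was lower in the libraries labelled knockout (0.450 ± 0.0173 against 5.07 ± 0.472 FPKM). In that line 1 gene of this list was higher and 2 were lower with either treatment (medians 0.12 and -0.17). Over all genes 8.55% were called with PBS and 17.3% with LPS. Without replicate 1 the PBS counts were 2 and 2 (median 0.11), against 20.8% of all genes. The count with LPS and that without replicate 1 were near these shares. Rsad2, the antiviral viperin, held 5.97 ± 0.405 FPKM in LPS-treated RAW264.7 cells labelled knockout against 61.1 ± 1.91 FPKM in wild type, the same comparison in which Slfn1 was lower. Tnf, which is driven by NF-kappaB, held 855 ± 8.36 FPKM in wild-type and 1158 ± 15.1 FPKM in knockout BMDMs with LPS. It passed the p threshold (limma adjusted p = 0.00624) but differed by less than 1.5-fold, and was not called.

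The members varied together to different degrees. Over the 12 BMDM libraries, which share their treatment and genotype groups, the Pearson r of log2(FPKM + 0.1) between any pair of members lay between 0.942 (Slfn1 and Slfn9) and 0.997 (Slfn2 and Slfn8). Over the 12 RAW264.7 libraries Slfn8 and Slfn9 gave 0.994 and Slfn2 and Slfn5 0.991, whereas Slfn3 gave 0.302 with Slfn2 and -0.0632 with Slfn1. Much of any such r reflects the step between PBS and LPS that the points share, and it is given as a description.

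The genes whose pattern was most like that of each member were ranked by the smaller of the r values in the 2 cell types, over 12 libraries each and 10356 genes. Slfn5 was most like Ddx58, the RIG-I sensor of viral RNA (0.998), and Slfn8 was most like Eif2ak2, the kinase PKR (0.998). Slfn2 was most like Cd47 (0.997), Slfn9 like Etv3 (0.995) and Slfn4 like Parp12 (0.993). Slfn3 was most like Dnajc13 (0.977), which held 14.5 FPKM in labelled knockout and 7.86 FPKM in wild-type RAW264.7 cells with LPS. Slfn1 was most like Gm12250 (0.949), followed by Mlkl and Il10 (0.942 and 0.936). Gm12250 held 1.95 FPKM in wild-type and 0.167 FPKM in labelled knockout RAW264.7 cells with LPS, and 336 and 249 FPKM in wild-type and knockout BMDMs with LPS. In RAW264.7 cells Slfn1, Gm12250 and Il10 reached a mean of 1 FPKM only in wild type with LPS, so their r there rests mainly on that group. The genes were chosen by their r over these same libraries, so a shared pattern follows from the choice and is given as a description.

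Of the other genes whose symbol starts with Slfn, the pseudogene Slfn10-ps was the most abundant. It held 5.54, 5.11 and 4.86 FPKM in wild-type RAW264.7 cells with LPS and 37.0, 34.2 and 34.5 FPKM in the libraries labelled knockout, with a called log2 fold change of 2.74 ± 0.56 (limma adjusted p = 0.00757). With PBS, libraries of RAW264.7 cells labelled knockout held 0.28, 2.22 and 2.01 FPKM and wild type 0.41, 0.41 and 0.42 FPKM, replicate 1 lying below wild type. In BMDMs it held 14.9, 15.3 and 14.1 FPKM in wild-type and 10.97, 10.8 and 10.4 FPKM in knockout libraries with PBS, and 8.83, 11.7 and 12.7 FPKM and 12.5, 12.7 and 11.98 FPKM with LPS. With LPS it was not called in either BMDM genotype. On the FPKM scale all LPS libraries lay below all PBS libraries in wild type (log2 fold change -0.43, limma adjusted p = 0.00895) and above them in knockout (0.20, adjusted p = 0.182). The fall in wild type, under 1.5-fold, was smaller than the median of -0.76 over genes of at least 1 FPKM on that scale. Under median-ratio scaling that median was 0.02. The BMDM interaction of Slfn10-ps was called (0.63, limma adjusted p = 0.0485). Slfn5os reached at most 2.07 FPKM in BMDMs and 0.96 FPKM in RAW264.7 cells, and Slfn14 and Slfnl1 at most 3 counts in any library.

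Genes around the cluster were examined to see whether they moved with the members. Within 500 kb of a member lay 58 other genes, of which 24 reached 1 FPKM in a group of both cell types. In knockout BMDMs with PBS 2 of the 24 were lower, against 0.905% of all genes. They were Ccl5 at 0.873 against 16.2 FPKM and Gm20234 at 0.547 against 1.20 FPKM. With LPS Mir7679 alone was higher in knockout, against 3.23% of all genes. By table coordinates Gm20234 and Mir7679 lie at 0 kb from a member. With LPS 7 rose and 9 fell in wild-type BMDMs, against 7.94% of all genes called higher and 32.5% called lower. Among those that fell was Rad51d, from 3.54 to 1.23 FPKM. In knockout BMDMs 9 rose and 8 fell, against 8.02% and 30.9%. The falls, on the FPKM scale, were near the share over all genes in both genotypes. In RAW264.7 cells more of the 24 rose, 13 against 2 that fell in wild type. Over all genes there, 5.8% were called higher and 12.5% lower. In the libraries labelled knockout 14 rose and 2 fell, against 7.45% and 14.6%. Without replicate 1, 14 rose and 1 fell, against 6.8% and 15%. Between genotypes of RAW264.7 cells 6 of the 24 were lower in the libraries labelled knockout with PBS, against 3.77% of all genes. Among them were Ccl3 at 58.3 against 184 FPKM and Ccl4 at 14.9 against 35.0 FPKM. Without replicate 1 of those libraries 7 were lower and 2 higher, against 8.11% and 12.7%. With LPS 5 were higher in the libraries labelled knockout and 1 lower, against 9.73% and 7.6% of all genes (17.3% either way). The higher ones included Gm11425 at 40.6 against 10.5 FPKM and Lig3 at 15.6 against 8.39 FPKM.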

How the data were processed

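Poly(A) RNA of 24 mouse macrophage libraries, 12 of RAW264.7 cells and 12 of BMDMs, had been sequenced as paired reads. The authors deposited raw counts and FPKM for 56691 genes in a table for each cell type, with exonic gene sizes that the deposited FPKM use. In 99.9% of RAW264.7 and 99.5% of BMDM values of at least 50 counts, FPKM recomputed from counts and gene sizes came within 1%. Which aligner and counter made them is not given in these sources. The submitters' processing notes list mm10, but the table coordinates differ from GRCm38, so their build is not established. Groups follow the titles, since the genotype tag contradicts them for 12 libraries.

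Each cell type was fitted with limma 3.58.1 in R 4.3.3 on log2(FPKM + 0.1) over genes above 0 FPKM in at least 1 library. The fit had 4 group means, default moderation and two-sided tests, and the 4 groups shared an estimate of the spread in each gene. A gene was called at a Benjamini-Hochberg adjusted p below 0.05 over all genes tested and a change of at least 1.5-fold. Groups were said not to overlap where every library of a group lay above every library of the other. Alternatives were pseudocounts of 0.01 and 1, no filter, a filter at 1 FPKM in 3 libraries, TPM, median-ratio scaling, edgeR 4.0.16 (TMM or DESeq2 size factors) and DESeq2 1.42.0 on counts, the replicate number as a block, and leaving out each library in turn. Scripts were tested on simulated data.

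Depth ran from 11638273 to 22873094 counts per library, and 3 counts over a group served as the floor where a group held none. Named were the members, other Slfn genes, Olfml3, interferon ligands, receptors and signalling genes, interferon-stimulated and LPS response genes as counts with 10 of them by value, expressed genes within 500 kb of a member, and the 3 genes most like each member. Neighbours given by value were picked after their values were seen. The members and lists were chosen with earlier results of these data known. Promoters come from RefSeq GRCm38.p6 and coding sequences from GENCODE vM21, which need not be the annotation behind the tables.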

Additional observations from a re-analysis of the deposited data

Results flagged for a closer look

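In 6 cases the interaction was called, that is, the genotype difference with LPS minus that with PBS, given here on the log2 scale. In BMDMs these were Slfn1 (1.60, turned with a pseudocount of 1), Slfn5 (1.48) and Slfn8 (1.02). In RAW264.7 cells, by label, they were Slfn4 (-1.21, not called with TPM), Slfn5 (1.52, not called in most fits with a library left out) and Slfn1 (-3.33). For Slfn1 in RAW264.7 cells no PBS difference could be measured, since neither PBS group held a count, and the value only repeats the difference with LPS.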

How the results depend on the processing

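Of 407 recomputed values of called members outside the leave-one-out fits, 395 kept direction and call, 11 kept direction but lost the call and 1 reversed. The reversed value is the BMDM interaction of Slfn1, -0.0863 with a pseudocount of 1, and the cause was not tested. Of 282 values with a library left out, 269 kept both, 13 lost the call and 0 reversed.

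Counts of called members moved most in RAW264.7 cells. Between labelled genotypes with PBS, 3 were called, 5 by DESeq2, 4 by edgeR, 2 with a pseudocount of 1, where Slfn5 lost its call, and 3 to 5 with a library left out. With LPS, 1 was called, 0 under the filter at 1 FPKM, where Slfn1 was not tested, and 2 by edgeR with either size factors and by DESeq2. The RAW264.7 interaction gave 3, and 2 to 5 with a library left out. For BMDM genotypes with LPS, 1 was called, and 0 with a pseudocount of 0.01 or TPM. BMDM genotypes with PBS gave 5, 4 with a pseudocount of 1, where Slfn4 lost its call, and 4 to 5 with a library left out. Leaving out a library gave 3 to 4 for the BMDM interaction and 5 to 6 for RAW264.7 LPS against PBS in libraries labelled knockout. In the BMDM interaction Slfn1 also lost its call with a pseudocount of 1. Slfn4 was called in addition with no filter, by edgeR with either size factors and by DESeq2. The cause was not tested where none is given.

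With the replicate block, called members in RAW264.7 cells numbered 3 and 1 between genotypes (PBS, LPS), 6 and 5 for LPS (wild type, labelled knockout) and 2 for the interaction, and in BMDMs 5, 1, 7, 7 and 3. The block lost only Slfn5 in the RAW264.7 interaction (adjusted p = 0.102). No label says that a replicate number marks a shared origin. Correlations of deviations between same-numbered libraries ran from -0.0618 to 0.0662 in RAW264.7 cells, the own number being best in 4 of 18 pairs. In BMDMs they ran from -0.0122 to 0.103, the own number being best in 12 of 18, so a weak shared origin there cannot be told apart from none.

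Few counts limit Slfn1 in RAW264.7 cells (0 to 103 per group) and in resting BMDMs (99 and 6), Slfn4 in resting BMDMs (126 and 27) and Slfn5 in RAW264.7 cells with PBS (177 and 58).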
